A study of Mus musculus with 6 samples.

Results

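The tumor suppressor p53 (Trp53 in the mouse) and the response to DNA damage were examined through 33 genes in tumors of colitis-associated carcinoma. The genes were taken by name from a list of p53, its inhibitor, the kinases that signal damage, direct targets of p53 and DNA repair enzymes, and all 33 were found among the 54532 genes of the table. The series holds RNA-seq of 3 tumor samples of Tmem173fl/fl mice, labelled WT, and 3 of Tmem173iΔmye mice, labelled CRE, both of the AOM+DSS-L arm of the study. In both groups Tmem173, which encodes STING, was flanked by loxP sites, the background was C57BL/6N, azoxymethane (AOM, a mutagen that alkylates DNA) and 3 cycles of dextran sodium sulfate (DSS) in drinking water induced the tumors, and tamoxifen (TAM) was injected after the DSS cycles. By design the groups therefore differed in the Cre alone: Tmem173iΔmye mice also carried Lyz2-Creert2 (spelled Lzym-Creert2 in the labels), a tamoxifen-activated Cre driven by the myeloid gene Lyz2. RNA came from whole tumors, in which cells that do not express Lyz2 keep Tmem173, and the age of these mice at TAM is not given in the sources used here. The comparison asks how loss of myeloid STING after tumors had formed altered gene expression in the tumor.

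DNA breaks and stalled replication activate the kinases ATM and ATR, which act through CHK2 and CHK1 and stabilize p53. The p53 protein then binds DNA and switches on genes that stop the cell cycle, trigger apoptosis, supply nucleotides and assist repair, and it switches on Mdm2, whose product marks p53 for degradation. Most regulation of p53 itself acts on the protein, so its mRNA is not a measure of its activity, whereas the mRNAs of its targets are commonly read as one. In colon epithelium exposed to AOM, repair of alkylated guanine by MGMT and recognition of the resulting mismatches by the mismatch repair proteins precede this response.

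The binding motif of p53 is made of copies of a half-site of 10 bases. Promoter windows of 300 bases, from 250 bases before to 50 bases after each annotated start (RefSeq, GRCm38.p6), matched 26 of the 33 genes, all but Pmaip1, Trp53inp1, Perp, Ddb2, Xpc, Rrm2b and Zmat3. The half-site, which reads the same on both strands, was found in the windows of 10 of these 26 genes (38.5%) and of 2582 of all 27025 genes with a window (9.55%). A pair of half-sites at most 13 bases apart was found in 1 of these 26 genes (3.85%), Cdkn1a, and in 20 of all genes with a window (0.0740%). The stretches of these windows around the half-sites of Cdkn1a, Mdm2, Bax and Trp53 are shown because the levels of these genes are given in full, with half-sites in capitals, 5′ to 3′ on the strand of the gene.
Cdkn1a, chr17:29090891-29090952, plus strand: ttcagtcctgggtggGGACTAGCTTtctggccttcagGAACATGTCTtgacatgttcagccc
Mdm2, chr10:117710920-117710959, minus strand: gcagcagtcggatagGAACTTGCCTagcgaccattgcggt
Bax, chr7:45467075-45467114, minus strand: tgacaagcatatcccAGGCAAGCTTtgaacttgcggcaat
Trp53, chr11:69580269-69580308, plus strand: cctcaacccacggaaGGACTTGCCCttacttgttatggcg
The half-sites of Cdkn1a begin 73 and 51 bases before its upstream start, with 12 bases between them. Those of Mdm2, Bax and Trp53 begin 186, 201 and 75 bases before the start. Only exact matches were counted and marked. The 10 bases directly after the second half-site of Cdkn1a differ from the half-site pattern at their first base alone and are not marked. The other genes with a half-site in the window were Aen, Ccng1, Ei24, Gadd45a, Polk and Sesn1. A match describes the letters of a window and is not evidence that p53 binds there.

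The total of gene counts was 15329810 to 16533732 per tumor. Levels are given as CPM, the reads on a gene relative to the total over the tested genes, after scaling of libraries by TMM. They are always in the order of replicates 1, 2 and 3. Levels of different genes are compared as FPKM, which also divides by gene length. Fold changes give the Tmem173iΔmye group relative to the Tmem173fl/fl group and come from edgeR's quasi-likelihood test, with p-values adjusted by Benjamini-Hochberg over the 16426 genes whose FPKM averaged 0.5 or more. The labels do not say that the tumors of a group came from separate mice, so the p-values measure only the spread between these 6 samples, which may in part be technical. Tmem173 itself had a log2 fold change of 0.0015 with a 95% interval of -0.56 to 0.56, and its level therefore gives no check of the genotypes. Y-linked reads numbered 3547, 2 and 0 in Tmem173fl/fl against 2875, 2655 and 2 in Tmem173iΔmye tumors, an unequal mix of sexes. The mean log2(CPM + 1) of 9 epithelial markers, such as Epcam, Cdh1 and Krt8, was 9.40 to 9.85 in Tmem173fl/fl and 9.69 to 9.99 in Tmem173iΔmye tumors, so these markers were abundant in every tumor.

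All 33 genes passed the filter and were tested. Their mean FPKM over the 6 tumors ran from 0.822 for Mgmt to 148 for Perp. After Perp, a membrane protein of desmosomes and a p53 target in apoptosis, the highest were Cdkn1a at 51.0, Bax at 40.5, Btg2 at 40.4, Ccng1 at 35.1 and Trp53 at 34.7. Below 2 FPKM were Mgmt, Atr (1.22), Eda2r (1.32), Pms2 (1.37) and Rrm2b (1.49). The cell cycle inhibitor, the apoptosis effector and p53 were thus well covered by reads, while the alkyltransferase Mgmt had between 16 and 102 counts per tumor.

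**Figure D1:**
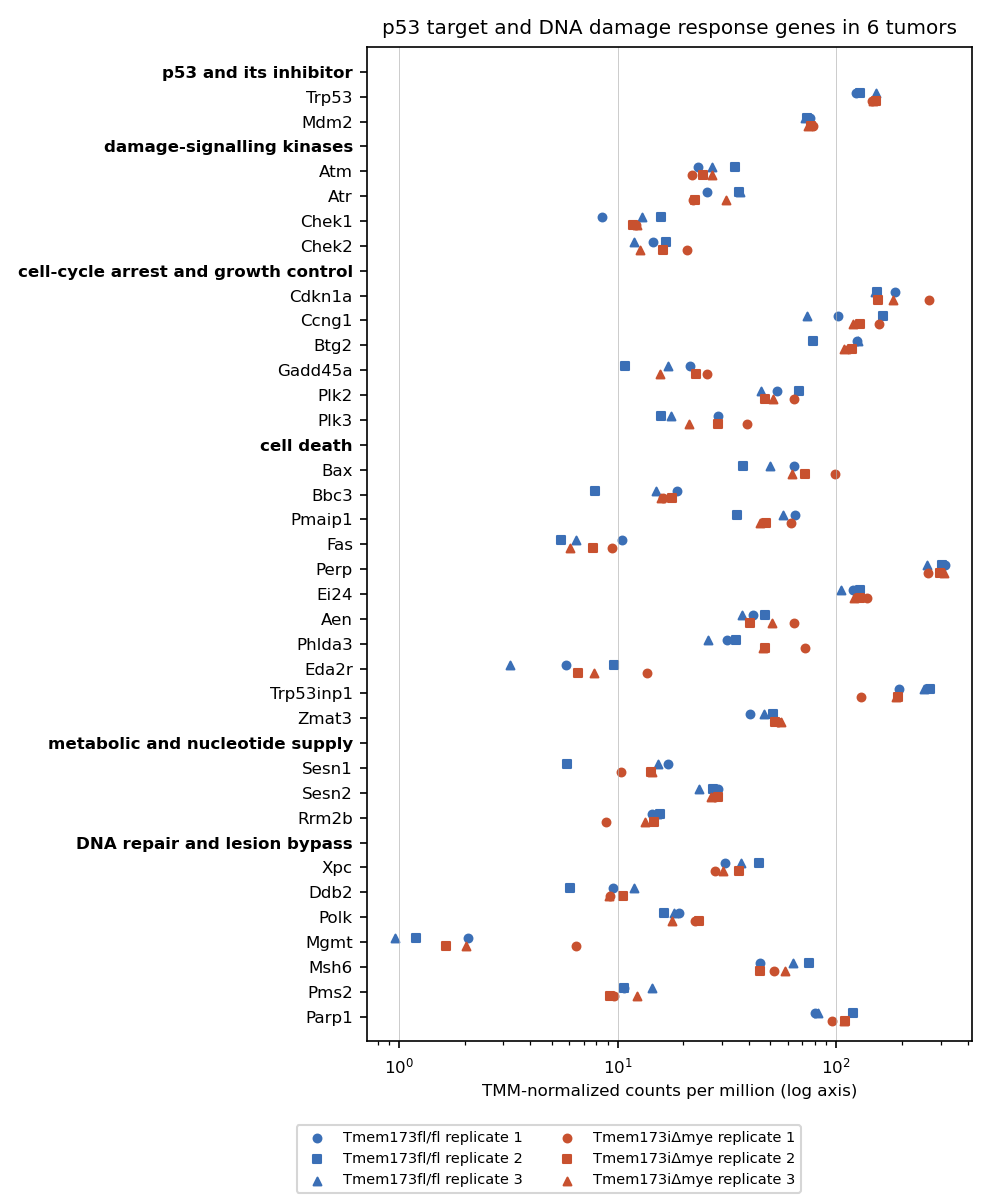
Level of each of the 33 genes in the 6 tumors, in TMM-normalized CPM on a log axis, with genes ordered by role. Blue symbols are Tmem173fl/fl and red symbols Tmem173iΔmye tumors, and the symbol shape gives the replicate. For 30 of the 33 genes the symbols of the groups overlap, and the levels run from about 1 CPM for Mgmt to over 300 CPM for Perp.

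None of the 33 genes passed an adjusted p under 0.05, and the smallest adjusted p was 0.742. This was also so for all tested genes, where edgeR called 0 of 16426 (0%), with 1008 at an unadjusted p under 0.05. Limma called 0 genes as well, and DESeq2 called 27 of 16406, none of them among the 33, whose smallest adjusted p in DESeq2 was 0.141. At an unadjusted p under 0.05, Phlda3 and Bax were higher in Tmem173iΔmye tumors and Trp53inp1 was lower, which is 2 genes up and 1 down of 33. The share of all genes at this threshold was 3.23% higher and 2.9% lower, so the count among the 33 lay near the background. At the threshold the study used, which adds a change of 2-fold or more, none of the 33 passed, against 2.12% of all genes. CPM did not overlap between the groups for 2 genes that were higher in Tmem173iΔmye tumors (Phlda3 and Zmat3) and 1 that was lower (Trp53inp1), against 6.03% and 6.47% of all genes. The number at an unadjusted p under 0.05 depended on single tumors. It was 6 without Tmem173fl/fl replicate 1, 5 without replicate 2 and 1 without replicate 3. It was 1 without Tmem173iΔmye replicate 1, 5 without replicate 2 and 4 without replicate 3. Over all tested genes the number was 1008 with every tumor, and 1664, 1068 and 530 without Tmem173fl/fl replicates 1, 2 and 3 in turn. Without Tmem173iΔmye replicates 1, 2 and 3 in turn it was 577, 798 and 927. Such shifts were thus not particular to the 33 genes.

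Of the 33 genes 22 lay above a log2 fold change of 0 and the median was 0.080, while 49.4% of all tested genes were above 0 and their median was -0.004. The 33 genes were chosen with earlier results of these data known, so these shares are a description and were not tested. Over the other settings the number above 0 was 20 to 24 and the median 0.049 (library totals alone) to 0.145 (without Tmem173fl/fl replicate 1), and without Tmem173iΔmye replicate 3 the median was 0.124. The sign was not stable for 10 of the 33 genes (Bbc3, Btg2, Chek1, Ddb2, Fas, Perp, Plk2, Pmaip1, Sesn1 and Sesn2), each of which turned when some tumor was left out. The 95% interval lay within a 2-fold change in either direction for 27 of the 33 genes (81.8%), as it did for 64.5% of all genes. For these 27 a change of 2-fold or more was outside the interval, and for the other 6 it was not. The ratio of the highest to the lowest tumor had a median of 1.75 among the 33 genes and 1.71 among 15850 genes with reads in every tumor. Variation between tumors of the p53 genes was therefore close to that of genes at large.

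**Figure D2:**
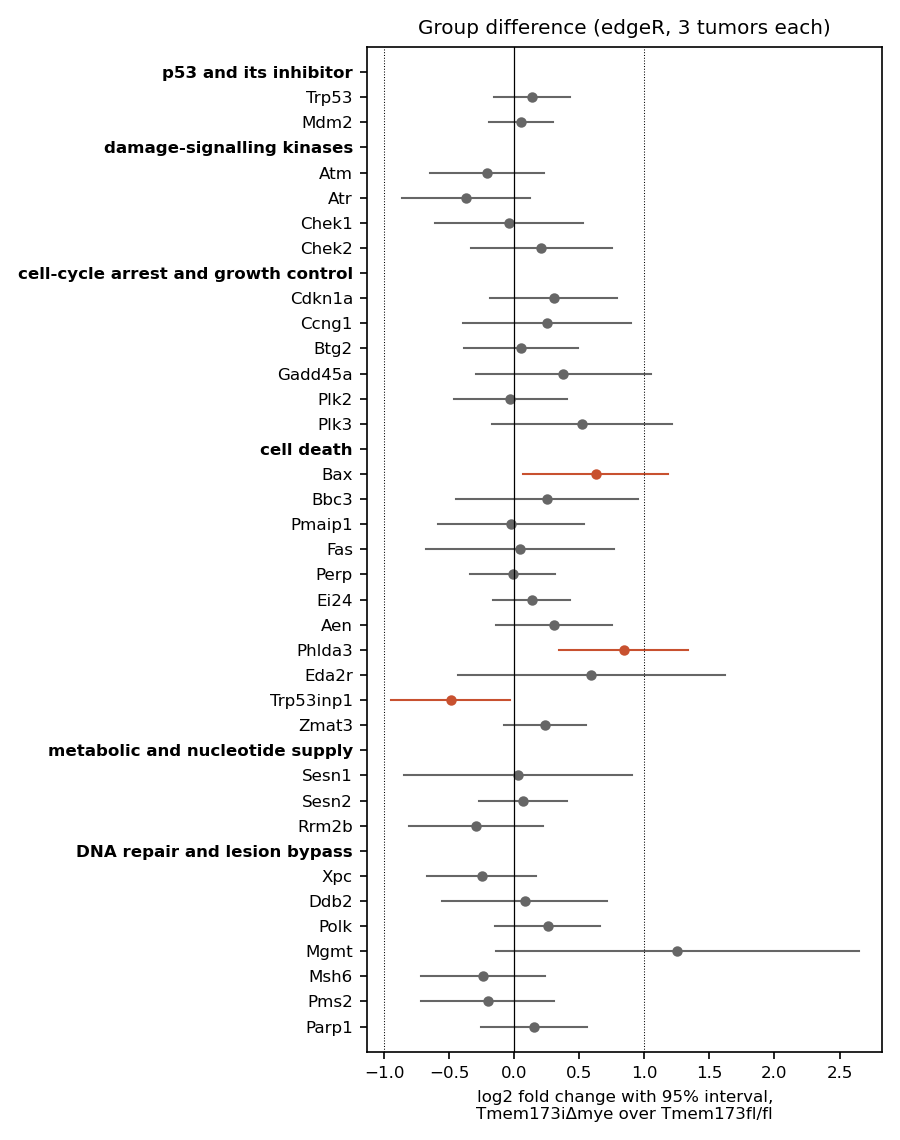
Log2 fold change of each gene, Tmem173iΔmye over Tmem173fl/fl, with its 95% interval from edgeR, 3 tumors per group. Dotted lines mark a 2-fold change and red marks the 3 genes at an unadjusted p under 0.05. The intervals of Phlda3 (0.35 to 1.34) and Bax (0.07 to 1.18) lie above 0 and that of Trp53inp1 (-0.95 to -0.03) lies below it, while the other 30 hold 0.

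The mRNAs of p53 and of its inhibitor were at similar levels in both groups, and their fold changes had the lowest median SE of the 6 roles. Trp53 (chr11:69580359-69591873, plus strand) had 123, 129 and 152 CPM in Tmem173fl/fl and 146, 152 and 147 CPM in Tmem173iΔmye tumors. The groups overlapped, with the lowest level in Tmem173fl/fl replicate 1. The means were 134 ± 15.2 and 148 ± 3.13 CPM (SD, n = 3), and the log2 fold change of 0.14 had a 95% interval of -0.15 to 0.43. Mdm2 (chr10:117688875-117710758, minus strand), the ubiquitin ligase that degrades p53 and is itself a p53 target, had 75.8, 73.7 and 71.7 CPM in Tmem173fl/fl and 78.3, 76.7 and 74.4 CPM in Tmem173iΔmye tumors. All 6 values lay within a ratio of 1.09 of each other. Its log2 fold change was 0.05 with an interval of -0.20 to 0.30 (adjusted p = 0.911), whose upper bound is a 1.23-fold increase.

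Among the damage-signalling kinases 1 of 4 had a log2 fold change above 0, against 49.4% of all tested genes, and none passed the test. Atr, the kinase activated by stalled replication forks, had 25.6, 36.1 and 36.4 CPM in Tmem173fl/fl and 22.03, 22.6 and 31.3 CPM in Tmem173iΔmye tumors. The groups overlapped through Tmem173fl/fl replicate 1 and Tmem173iΔmye replicate 3. Its log2 fold change was -0.37 (SE 0.21, 95% interval -0.86 to 0.12, adjusted p = 0.742). Chek2, which encodes the kinase CHK2 that ATM activates after double-strand breaks, had 14.5, 16.7 and 11.9 CPM in Tmem173fl/fl and 20.8, 16.2 and 12.7 CPM in Tmem173iΔmye tumors, at a log2 fold change of 0.21 (SE 0.23). Atm, the kinase that responds to double-strand breaks, and Chek1, which ATR activates, had log2 fold changes of -0.21 and -0.04. The intervals of all 4 kinases lay within a 2-fold change.

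Of the 6 genes of cell cycle arrest and growth control, 5 had a log2 fold change above 0, against 49.4% of all tested genes. None passed the test. Cdkn1a (chr17:29090976-29100727, plus strand) encodes p21, the inhibitor of cyclin-dependent kinases through which p53 arrests the cycle. It had 185, 154 and 151 CPM in Tmem173fl/fl and 265, 156 and 183 CPM in Tmem173iΔmye tumors. Tmem173iΔmye replicate 1 stood above the other 5 tumors, which lay between 151 and 185 CPM. The log2 fold change of 0.30 (SE 0.21, 95% interval -0.18 to 0.79, adjusted p = 0.757) was 0.05 without that tumor. Plk3, a stress-activated Polo-like kinase, had 28.7, 15.8 and 17.5 CPM in Tmem173fl/fl and 38.9, 28.7 and 21.3 CPM in Tmem173iΔmye tumors, and its log2 fold change was 0.52 (SE 0.30, 95% interval -0.17 to 1.21). Gadd45a (0.38), Ccng1 (0.25), Btg2 (0.05) and Plk2 (-0.03) had log2 fold changes with intervals that held 0. With Y-linked reads as a covariate, the log2 fold change was 0.30 for Plk3, 0.17 for Gadd45a, 0.22 for Cdkn1a and -0.004 for Btg2. Those of Ccng1 (0.24) and Plk2 (-0.04) moved little. Ccng1 encodes cyclin G1, Btg2 an antiproliferative protein and Gadd45a a stress sensor. Exons of 11 of the 33 genes overlap an exon of another gene in GENCODE M21. Those of Cdkn1a and Gadd45a overlap an antisense gene with 32 to 77 and 36 to 87 counts per tumor, and those of Plk3 one with 1 to 7. The strand setting of the counting is not given in the sources used here.

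The 11 genes of cell death held the 3 genes at an unadjusted p under 0.05, with 8 of the 11 above 0 and a median log2 fold change of 0.24. Of all tested genes 49.4% were above 0, and at this threshold 3.23% were higher and 2.9% lower. Phlda3 (chr1:135766119-135769136, plus strand), a p53 target that represses the survival kinase AKT, had 31.6, 34.9 and 25.8 CPM in Tmem173fl/fl and 71.9, 47.2 and 46.4 CPM in Tmem173iΔmye tumors. Each Tmem173iΔmye tumor was above each Tmem173fl/fl tumor. The means were 30.8 ± 4.62 and 55.2 ± 14.5 CPM (SD, n = 3), a 1.79-fold difference with a 95% interval of 1.27 to 2.53 (log2 fold change 0.84, SE 0.21, adjusted p = 0.742). It was the one gene of the 33 at an unadjusted p under 0.05 in each of the other settings tried, with a log2 fold change from 0.60 to 0.95. Its promoter window held no p53 half-site.

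Bax (chr7:45461697-45466898, minus strand), whose product permeabilizes mitochondria in apoptosis, had 64.4, 37.4 and 49.9 CPM in Tmem173fl/fl and 99.1, 72.0 and 62.9 CPM in Tmem173iΔmye tumors. Tmem173fl/fl replicate 1 lay just above Tmem173iΔmye replicate 3, so the groups overlapped. The difference was 1.54-fold with an interval of 1.05 to 2.27 (log2 fold change 0.63, SE 0.24, adjusted p = 0.742). It was not past the unadjusted threshold without Tmem173fl/fl replicate 2 (log2 fold change 0.45) or replicate 3 (0.62), or without Tmem173iΔmye replicate 1 (0.41). Bax had a half-site in its window, as shown above.

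Trp53inp1 (chr4:11156431-11174379, plus strand), a stress-induced nuclear and autophagy protein that assists p53, was lower in Tmem173iΔmye tumors. It had 193, 268 and 251 CPM in Tmem173fl/fl and 129, 191 and 188 CPM in Tmem173iΔmye tumors. The groups were separated by a small gap, between 191 and 193 CPM. The log2 fold change was -0.49 (SE 0.20, 95% interval -0.95 to -0.03, adjusted p = 0.742). It was not past the unadjusted threshold with Y-linked reads as a covariate (-0.37), without Tmem173fl/fl replicate 2 (-0.39) or 3 (-0.44), or without Tmem173iΔmye replicate 1 (-0.33).

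Zmat3, an RNA-binding p53 target that regulates splicing, had 40.2, 51.6 and 46.6 CPM in Tmem173fl/fl and 54.4, 52.6 and 56.0 CPM in Tmem173iΔmye tumors. The groups did not overlap, but the log2 fold change of 0.24 (SE 0.14, adjusted p = 0.742) had an interval of -0.08 to 0.55. Perp had 313, 305 and 260.4 CPM in Tmem173fl/fl and 263, 298 and 310.3 CPM in Tmem173iΔmye tumors, which gave a log2 fold change of -0.01 and an interval of -0.34 to 0.31. The BH3-only genes Bbc3 (PUMA, 0.25) and Pmaip1 (NOXA, -0.02), the death receptor gene Fas (0.05), Ei24 (0.13), the exonuclease gene Aen (0.31) and the X-linked receptor gene Eda2r (0.59) completed the group, all with intervals that held 0.

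**Figure D3:**
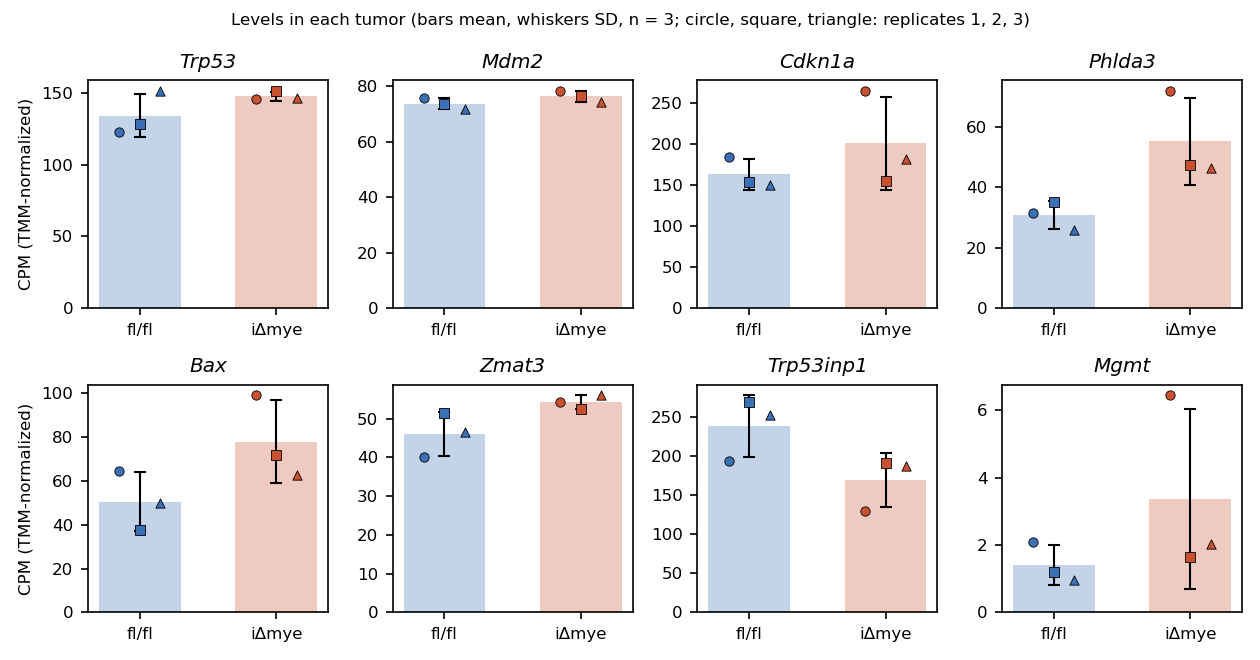
CPM of 8 genes in each tumor. Bars are means and whiskers SD (n = 3), with circles, squares and triangles for replicates 1, 2 and 3. For Phlda3 the Tmem173iΔmye tumors (46.4 to 71.9) lie above the Tmem173fl/fl tumors (25.8 to 34.9), for Trp53inp1 they lie below, and in Cdkn1a and Mgmt a single Tmem173iΔmye tumor stands above the rest.

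In metabolic defence and nucleotide supply no gene passed the test, and the 3 intervals lay within a 2-fold change. Sesn2, a sestrin that restrains mTORC1, had 28.7, 27.3 and 23.6 CPM in Tmem173fl/fl and 27.8, 28.8 and 26.7 CPM in Tmem173iΔmye tumors. These levels overlapped closely, with a log2 fold change of 0.06 (SE 0.15). Rrm2b, the p53-induced subunit of ribonucleotide reductase, had 14.4, 15.7 and 15.1 CPM in Tmem173fl/fl and 8.90, 14.7 and 13.3 CPM in Tmem173iΔmye tumors. Tmem173iΔmye replicate 1 was lowest, and the log2 fold change was -0.29 (SE 0.22, adjusted p = 0.766). The log2 fold change of Sesn1 was 0.03.

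Among the 7 genes of DNA repair and lesion bypass, 4 had a log2 fold change above 0, against 49.4% of all tested genes. None passed the test. Mgmt, the alkyltransferase that removes methyl groups from guanine and thereby the lesion that AOM produces, had 2.08, 1.2 and 0.960 CPM in Tmem173fl/fl and 6.44, 1.64 and 2.04 CPM in Tmem173iΔmye tumors. These are 32, 18 and 16 counts and 102, 26 and 32 counts. Its log2 fold change of 1.25 (SE 0.60, 95% interval -0.14 to 2.65, adjusted p = 0.742) was the largest of the 33 and rested on Tmem173iΔmye replicate 1, without which it was 0.38. Parp1, which binds DNA breaks and recruits repair factors, had 80.2, 119 and 82.6 CPM in Tmem173fl/fl and 96.0, 109 and 109 CPM in Tmem173iΔmye tumors, and its log2 fold change was 0.15 (SE 0.18). The mismatch repair genes Msh6 (-0.24) and Pms2 (-0.20), the nucleotide excision repair genes Xpc (-0.25) and Ddb2 (0.08) and the bypass polymerase gene Polk (0.26) had intervals that held 0. Exons of Msh6 and Ddb2 overlap the exons of Fbxo11 and Acp2 on the opposite strand, which had 1246 to 1643 and 694 to 1021 counts per tumor.

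All 10 genes with a p53 half-site in the promoter window were above 0 on the log2 scale, with a median of 0.25. This was so for 9 of the 10 with library totals alone, with Y-linked reads as a covariate and without Tmem173fl/fl replicate 2 or Tmem173iΔmye replicate 2 or 3, where Sesn1 was below 0, and the median was 0.14 without Tmem173iΔmye replicate 1. Of the 16 genes with a window and no half-site 10 were above 0, with a median of 0.06, and of the 7 genes with no window 2 were above 0, with a median of -0.02. Of the 887 tested genes that had a half-site in the window, 51.3% were above 0, with a median of 0.01, and of the 9915 without one 50.7% were above 0. This grouping was made after the values were seen and was not tested, and none of the 10 apart from Bax was at an unadjusted p under 0.05. It also differed in role. No damage-signalling kinase had a half-site in its window, while Aen, Bax, Ccng1, Cdkn1a, Ei24 and Gadd45a are genes of arrest or cell death.

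Single tumors stood out across the genes of arrest and cell death. Tmem173iΔmye replicate 1 had the highest level for 11 of the 33 genes (33.3%) and for 8 of the 17 genes of arrest and death, and it was the highest tumor for 24.9% of all genes. The lowest level was in Tmem173fl/fl replicate 2 or 3, tumors picked after the values were seen, for 22 of the 33 genes (66.7%), for 15 of these 17 (88.2%) and for 45.2% of all genes. Over the 33 genes the mean log2(CPM + 1) was 5.16, 5.09 and 5.07 in Tmem173fl/fl and 5.34, 5.20 and 5.17 in Tmem173iΔmye tumors. This level was highest in Tmem173iΔmye replicate 1, and the groups were separated by a gap smaller than the SD within either group.

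The levels of other gene groups in the same tumors are given for comparison. The mean log2(CPM + 1) of 16 type I interferon response genes, such as Ifit1 and Isg15, was 4.43, 3.97 and 3.36 in Tmem173fl/fl and 6.20, 4.56 and 4.97 in Tmem173iΔmye tumors. All 16 were above a log2 fold change of 0, and Tmem173iΔmye replicate 1 was again highest. In edgeR 15 of them were at an unadjusted p under 0.05, against 3.23% of all genes, and none passed an adjusted p under 0.05. For tumors of this arm the paper reports, by gene set enrichment, that type I interferon pathways were suppressed in Tmem173iΔmye mice. That is the opposite direction, and the reason for the difference was not tested. In the other gene groups given here the levels overlapped. Above a log2 fold change of 0 were 9 of 9 epithelial markers, 15 of 20 proliferation genes and 9 of 10 leukocyte markers. So were 6 of 7 neutrophil, 6 of 8 fibroblast and 2 of 8 smooth muscle markers, against 49.4% of all tested genes. A share above that of all genes was thus not particular to the 33 genes, of which 22 were above 0. The level of 20 proliferation genes was 5.75, 6.28 and 5.54 against 6.40, 5.85 and 5.86, and that of 8 smooth muscle markers was 4.97, 4.54 and 4.94 against 4.13, 3.98 and 4.85. Leukocyte markers (10 genes) ranged from 4.10 to 5.28 and from 4.32 to 5.08, and neutrophil markers (7 tested genes) from 2.87 to 4.13 and from 3.44 to 5.09. Fibroblast markers (8 genes) ranged from 6.72 to 6.94 and from 6.89 to 7.36. The part of interferon, cell composition or this tumor in the levels of Phlda3, Bax and Trp53inp1 was not tested. In whole tumor RNA, fewer cells of a type and less RNA per cell cannot be told apart.

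Fold changes also varied with gene length. Over all tested genes in 3 classes of equal size, the median log2 fold change was 0.10 below a gene length of 2296 bases, 0.04 up to 4870 bases and -0.09 above it. For the 6 members of the short class, which holds Phlda3 and Bax, the median was 0.32, and for the 12 of the long class, which holds Trp53inp1, Zmat3 and Atr, it was -0.08. The trend differed between tumors: relative to the mean of the 6 tumors, long genes had a median of 0.15 in Tmem173fl/fl replicate 2 and -0.12 in Tmem173iΔmye replicate 1. With this trend taken out, an alternative chosen after seeing the data, the log2 fold changes were 0.70 for Phlda3, 0.52 for Bax, -0.43 for Trp53inp1, 0.38 for Zmat3 and -0.14 for Atr. The 3 genes thus kept their side of the unadjusted threshold, Zmat3 joined them, and 20 of the 33 genes were above 0.

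**Figure D4:**
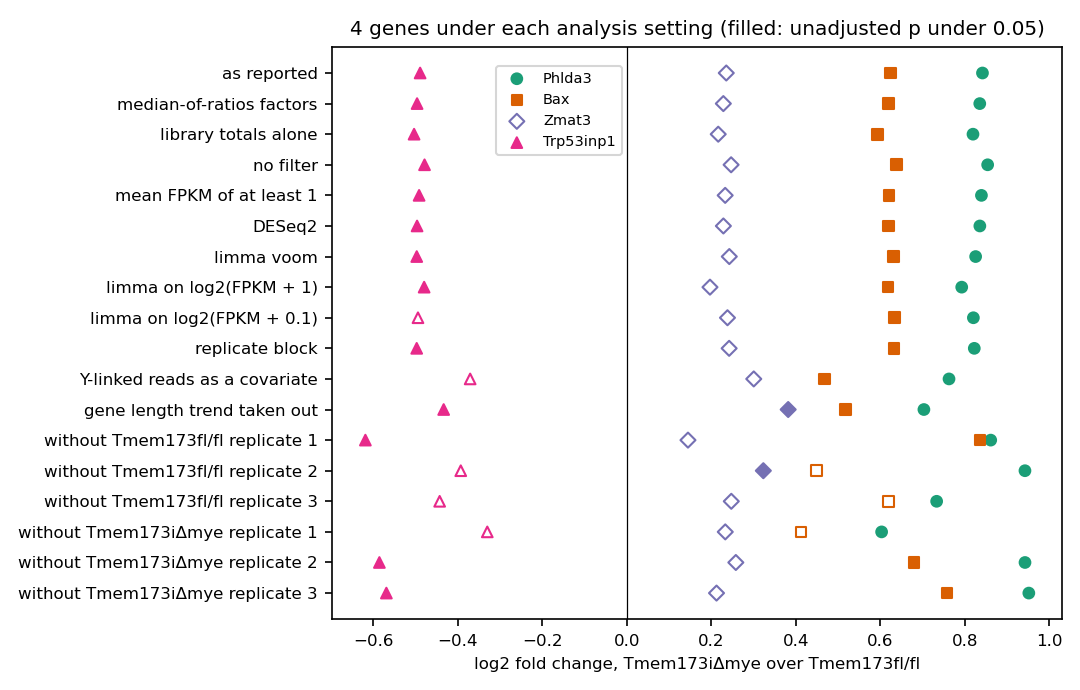
Log2 fold change of Phlda3, Bax, Zmat3 and Trp53inp1 under each analysis setting, Tmem173iΔmye over Tmem173fl/fl, with filled symbols for an unadjusted p under 0.05. Phlda3 stays between 0.60 and 0.95 and filled in every row, while Bax and Trp53inp1 move toward 0 and become open without Tmem173iΔmye replicate 1, where they are at 0.41 and -0.33.

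The wider pathway was read in 8 lists with 152 further genes, of which 149 passed the filter. Of these, 72 lay above 0 on the log2 scale, the median fold change was -0.002, and 4 were higher and 5 lower at an unadjusted p under 0.05, again near the share among all genes. None passed an adjusted p under 0.05. Other p53 targets were the list with the highest median, 0.15, with 19 of 30 above 0, against 49.4% of all tested genes. In that list Psrc1, a spindle protein gene, had 9.23, 8.47 and 6.96 CPM in Tmem173fl/fl and 50.4, 17.01 and 15.2 CPM in Tmem173iΔmye tumors (log2 fold change 1.74, SE 0.46). Apaf1, which builds the apoptosome downstream of BAX, had 113, 144 and 127 CPM against 91.2, 95.2 and 85.6 CPM (-0.50, SE 0.13). The groups overlapped for neither gene. The stress cytokine gene Gdf15, the other gene of the list at this threshold and named after its values were seen, was at 0.84 (SE 0.31).

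Among the p53 regulators 7 of 16 tested genes were above 0, against 49.4% of all tested genes, with a median of -0.003. Trp63 and Trp73, the relatives of p53, fell below the filter. Cdkn2a, whose locus encodes the cell cycle inhibitor p16 and the MDM2 inhibitor ARF, had 10.4, 6.67 and 7.38 CPM in Tmem173fl/fl and 34.7, 12.5 and 13.6 CPM in Tmem173iΔmye tumors. The groups did not overlap, and the log2 fold change was 1.31 (SE 0.42, adjusted p = 0.742). The products p16 and ARF arise from transcripts of the same gene that this count does not tell apart.

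In the repair lists, 9 of 23 genes of damage sensing and checkpoint were above 0, 3 of 13 of mismatch and alkylation repair, 13 of 17 of base excision and single-strand break repair, 8 of 15 of nucleotide excision repair, 8 of 25 of homologous recombination and crosslink repair, and 5 of 10 of end joining. Their medians ran from -0.14 for homologous recombination to 0.09 for base excision. Of all tested genes 49.4% were above 0. One gene in each of the first 5 lists was at an unadjusted p under 0.05 in edgeR, where 3.23% of all genes were higher and 2.9% lower. Rpa3, a subunit of the protein that coats single-stranded DNA, was higher in Tmem173iΔmye tumors (0.51, SE 0.19). Lower were Pms1 of mismatch repair (-0.74, SE 0.26), the thymine glycosylase gene Tdg (-0.31, SE 0.13), Uvssa of transcription-coupled repair (-0.53, SE 0.18) and the recombination mediator Brca2 (-0.75, SE 0.26). The trend with gene length described above was not taken out of the fold changes of any further list, and its part in them was not tested. The next genes of these lists did not pass: the checkpoint kinase gene Wee1 at -0.37, Alkbh2 at 0.56, Polb at 0.25, Cetn2 at 0.26 and Xrcc3 at -0.44. In end joining none passed, and Dclre1c (Artemis) and Prkdc were at -0.29 and -0.32. The base excision gene Neil2 was below the filter.

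**Figure D5:**
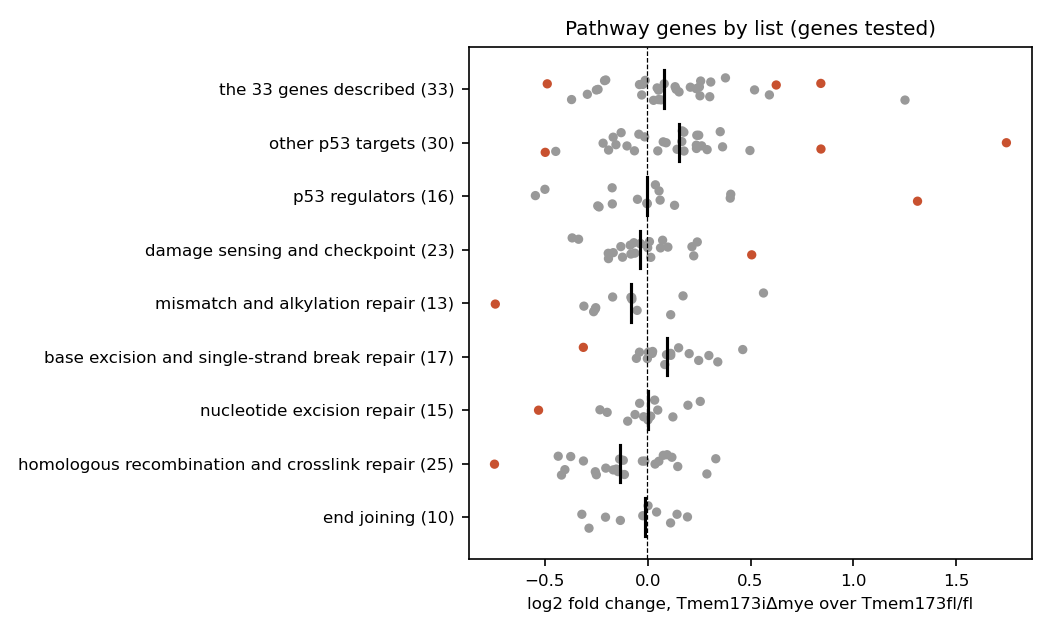
Log2 fold change of each tested gene, Tmem173iΔmye over Tmem173fl/fl, for the 33 genes and the 8 further lists, with the number of genes tested in brackets. Vertical bars are medians and red marks an unadjusted p under 0.05. The medians lie between -0.14 and 0.15, and 4 further genes are red above 0 and 5 below it.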

How the data were processed

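The authors deposited a table of read counts per gene with FPKM for 6 polyA RNA-seq libraries. The submitters' processing notes name CASAVA 1.8, fastp, HISAT2 2.0.5, featureCounts 1.5.0-p3, DESeq2 1.20.0 and GRCm38/mm10. The deposited FPKM were made from the counts with median-of-ratios size factors. The table also holds the authors' group means, fold changes and p-values, which were not used.

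The deposited counts of genes whose FPKM averaged 0.5 or more were compared with edgeR 4.0.16 (R 4.3.3), by the quasi-likelihood test with TMM normalization and no covariate, and p-values were adjusted by Benjamini-Hochberg over all genes tested. SE is the log2 fold change over the root of the F statistic. Scripts were tested on simulated counts. DESeq2 1.42.0, limma 3.58.1 (voom and log2(FPKM + a pseudocount)), other scalings and filters, a replicate block, Y-linked reads as a covariate and leaving out each tumor were alternatives.

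The members and lists were chosen with earlier results of these data known. All members are named. Values in every tumor are given for Trp53, Cdkn1a, Mdm2, members at an unadjusted p under 0.05 or without overlap between groups and, per role, those with the highest FPKM and the lowest p. From each further list up to 2 genes with the lowest p are named. A gene that this rule selects is not reported here.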

Additional observations from a re-analysis of the deposited data

How the results depend on the processing

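No setting gave a member with an adjusted p under 0.05. The number of members at an unadjusted p under 0.05, which was 3, was 5 with a replicate block, with Mgmt and Plk3 added. Of these 5, 4 were higher in Tmem173iΔmye tumors. Over all 16426 tested genes the block moved this number from 1008 to 1504. The number of members ranged from 1 to 6 when each tumor was left out in turn, and that of all genes from 530 to 1664. The range was 1 to 5 for members that were higher and 0 to 3 for those that were lower. The 1 member that was lower, Trp53inp1, was not past the threshold (0 members lower) with limma on log2(FPKM + 0.1) or with Y-linked reads as a covariate. Same-numbered tumors of the groups correlated in their deviations from the group means with r = 0.31, 0.01 and 0.15. The mean was 0.16 for the same number and -0.08 for different numbers, and 3 of 6 tumors correlated best with their own number. With so few tumors these values cannot decide whether same-numbered samples share more than a number. The sign turned on leaving out a single tumor for 10 of the 33 members, among them Perp, from -0.086 to 0.053, and Sesn2, from -0.0099 to 0.13. Of 254 values under alternatives of the 15 members given in full, 232 kept their direction and their side of the threshold. Most of these members were not past the threshold in the main fit, so for them this only meant staying so. All settings draw on the same 6 tumors, so the count is no measure of replication. The cause was not tested for any of the changes between settings. Mgmt lies below a mean FPKM of 1 and was left out by that stricter filter. At this depth the lowest counts, those of Mgmt, limit what can be said of it, and counting error is only part of the spread between tumors.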
